A study of Homo sapiens with 16 samples.

Results

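Uroplakins are the membrane proteins that tile the luminal face of the bladder lining, and the urothelial transcription factors are the regulators that set whether a bladder cell is of the luminal or the basal kind. The 10 genes described here are the uroplakins UPK1A, UPK1B, UPK2, UPK3A and UPK3B and the transcription factors PPARG, GATA3, FOXA1, TP63 and ELF3, chosen by gene symbol out of 35993 symbols in the count table. RNA was sequenced from 4 lines of human bladder cancer (RT112, TCCSUP, J82 and 253J), all labelled as wild type, after 48 h with the histone deacetylase inhibitor CM-1758 at the IC50 of each line or with the vehicle DMSO at 0.01%, as the sample labels give the controls, which the study's legends call untreated. Each of the 8 groups had 2 libraries, described as independent biological replicates. The p-values below set a difference against the spread within such pairs, estimated from all 8 groups unless a line was fitted alone. Because the dose was the IC50 of each line, CM-1758 was not given at 1 common dose across lines, and 253J, J82 and RT112 were kept in DMEM and TCCSUP in EMEM, so that a difference between TCCSUP and the other lines cannot be told apart from a difference in medium.

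In umbrella cells, the large cells on the surface of the urothelium, uroplakins are made as pairs. UPK1A, a tetraspanin, pairs with UPK2, and UPK1B, its sister tetraspanin, pairs with UPK3A or the related UPK3B, and the pairs are packed into plaques that keep urine out. PPARG, a nuclear receptor, works with GATA3, a zinc finger factor, and FOXA1, a forkhead factor that opens chromatin, to drive luminal differentiation, and ELF3, an ETS factor, acts downstream of PPARG. TP63, the p63 factor, marks the basal and intermediate layers. Histone deacetylase inhibitors keep acetyl groups on histones and change the transcription of many genes in both directions. In bulk RNA of this kind, fewer cells expressing a gene and less RNA per cell cannot be told apart.

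The libraries held 22506431 to 32537104 counts, with a median of 29363076 over the 8 control and 23590242.5 over the 8 treated libraries. Levels are given as CPM, the usual count scaled by library size, on library sizes adjusted by the trimmed mean of M-values, and tests come from edgeR's quasi-likelihood fit of all 16 libraries with Benjamini-Hochberg adjustment over the 21297 genes tested. A gene is said to have risen or fallen when its adjusted p was under 0.05. The 2 control libraries of J82 differed most from each other, their counts giving a chi-square, divided by its degrees of freedom, of 73.1 where the other 7 groups gave 11.7 to 49.2. The epithelial label of each line was checked against 13 markers. Of these, none was at 0 in the RT112 controls, 1 (RAB25) was at 0 in TCCSUP, 3 (ESRP1, RAB25 and GRHL2) in J82, and 5 (ESRP1, CLDN7, ST14, RAB25 and GRHL2) in 253J. The summed level of these epithelial markers was 7460 to 7710 CPM in the RT112 controls and 5950 to 8070 CPM in those of J82. It was 3180 to 4330 CPM in 253J and 1240 to 1360 CPM in TCCSUP, another order of the lines than the markers at 0 gave. The summed level of 13 mesenchymal markers was 1020 to 1120 CPM in the RT112 controls and 5270 to 9950 CPM in those of the other 3 lines.

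RefSeq windows of 300 bases, from 250 before to 50 after each annotated start (GRCh38.p14, whereas the submitters' processing notes name GRCh37), were matched by symbol to 8 of the 10 genes (all but UPK2 and UPK3A). The windows of the 3 uroplakins that fell in RT112 and of FOXA1 and ELF3, which start beside a gene on the other strand, are printed because the results below turn on these 5 genes. Each runs 5′ to 3′ on the strand of the gene. In UPK1A (chr19:35666267-35666566, plus strand) and ELF3 (chr1:202010337-202010636, plus strand) the capitals mark the match to TATAAA, the letters of a TATA box, and in FOXA1 (chr14:37595200-37595499, minus strand) they mark the 121 bases shared with the window of TTC6. UPK1B is at chr3:119173348-119173647 and UPK3B at chr7:76510302-76510601, both on the plus strand, and neither holds any of the motifs searched.
UPK1A: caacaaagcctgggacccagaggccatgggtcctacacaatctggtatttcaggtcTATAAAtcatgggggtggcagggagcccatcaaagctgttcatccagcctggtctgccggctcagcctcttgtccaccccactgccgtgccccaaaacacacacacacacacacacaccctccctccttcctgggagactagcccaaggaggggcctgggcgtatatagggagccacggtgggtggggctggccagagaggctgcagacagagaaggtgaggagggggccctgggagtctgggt
UPK1B: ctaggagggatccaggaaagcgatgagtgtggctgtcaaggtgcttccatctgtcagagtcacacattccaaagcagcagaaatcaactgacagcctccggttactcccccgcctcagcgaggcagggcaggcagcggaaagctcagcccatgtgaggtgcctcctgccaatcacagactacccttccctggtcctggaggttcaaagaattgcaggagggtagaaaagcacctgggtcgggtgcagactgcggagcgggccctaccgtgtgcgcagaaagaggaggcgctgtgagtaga
UPK3B: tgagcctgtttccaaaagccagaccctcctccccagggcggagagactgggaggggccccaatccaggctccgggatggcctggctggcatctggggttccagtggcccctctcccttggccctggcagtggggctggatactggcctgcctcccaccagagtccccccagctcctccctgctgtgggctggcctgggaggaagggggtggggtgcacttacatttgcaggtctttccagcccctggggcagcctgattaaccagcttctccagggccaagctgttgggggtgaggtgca
FOXA1: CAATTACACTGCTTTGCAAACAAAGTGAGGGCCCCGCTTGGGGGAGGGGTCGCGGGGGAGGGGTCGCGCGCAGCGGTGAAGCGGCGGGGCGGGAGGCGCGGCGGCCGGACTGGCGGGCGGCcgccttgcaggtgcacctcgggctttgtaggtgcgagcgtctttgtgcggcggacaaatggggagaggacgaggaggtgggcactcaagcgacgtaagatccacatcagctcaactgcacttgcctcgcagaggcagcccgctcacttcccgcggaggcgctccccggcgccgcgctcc
ELF3: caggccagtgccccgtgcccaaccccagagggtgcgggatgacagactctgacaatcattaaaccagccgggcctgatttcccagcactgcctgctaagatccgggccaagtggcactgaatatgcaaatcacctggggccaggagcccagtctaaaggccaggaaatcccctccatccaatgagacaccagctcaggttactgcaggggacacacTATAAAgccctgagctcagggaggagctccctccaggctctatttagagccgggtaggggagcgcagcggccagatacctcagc

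Both strands were searched for GATAA (read by GATA factors), TGTTTAC (forkhead factors), AGGTCA repeated after a gap of 1 base (the direct repeat read by PPARG with its retinoid partner), CCGGAAGT (ETS factors), TATAAA and CACGTG (an E-box). The TATAAA of UPK1A begins 194 bases before the start and that of ELF3 begins 34 bases before it, and 11.5% of all 35116 windows hold TATAAA. The share of windows holding the others is 22.7% for GATAA, 3.42% for TGTTTAC, 0.0228% for the AGGTCA repeat, 4.14% for CCGGAAGT and 7.26% for CACGTG. None of the last 5 is in the windows printed. The FOXA1 window holds 34 CpG pairs, against 2 in UPK3B, 4 in UPK1A, 7 in ELF3 and 11 in UPK1B, with a median of 14 over all windows.

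The control libraries were compared to ask how much of each gene the 4 lines make before treatment. RT112 had the highest control level of 9 of the 10 genes, and UPK3A had no count in any control library, while 24.6% of all tested genes were highest in RT112. Levels differed between the 4 lines for those 9 genes (edgeR F test over the 4 control groups), as they did for 78.8% of all tested genes. Each of the 9 was higher in RT112 than in every other line, with adjusted p-values past the threshold in all 3 comparisons, where 54.3% of all genes differed from 253J, 52.1% from J82 and 51.5% from TCCSUP. Of these genes, 3 reached the test through few groups: UPK1A cleared the filter on low counts in the RT112 controls, UPK2 in RT112 with and without CM-1758, and UPK3A in treated TCCSUP, so that a difference between groups was built into their being tested.

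UPK1B was the uroplakin of RT112. Its 2 control libraries held 39715 and 44765 counts, 1298 and 1517 CPM, whereas the 4 control libraries of 253J and J82 held none and those of TCCSUP held 49 and 20 counts. RT112 stood at least 12600-fold above 253J and J82, taking 3 counts per library as the floor, and 1040-fold above TCCSUP. UPK3B was at 67.4 and 79.4 CPM in the RT112 controls, at 0.871 and 0.842 CPM in TCCSUP, at 0.266 and 0.254 CPM in J82 and at 0.109 and 0.306 CPM in 253J. UPK3B thus ran from RT112 through TCCSUP to J82 and 253J, and J82 and 253J did not pass the test of their difference (edgeR adjusted p = 0.733).

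UPK1A and UPK2, the pair of the other heterodimer, were both scarce. UPK1A was at 4.87 and 5.22 CPM and UPK2 at 4.05 and 4.54 CPM in the RT112 controls, and neither exceeded 3 counts in any control library of the other lines. Per kilobase of exon, with lengths from GENCODE v29, the RT112 control level of UPK1B was 664 CPM, that of UPK3B 28.9, that of UPK2 4.69 and that of UPK1A 3.69. The tetraspanin UPK1B was therefore far above its sister UPK1A in these cells, and its partner UPK3A was not detected, 0 counts allowing up to 3 counts per library. These floors and all counting intervals below cover counting error only.

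PPARG was present in every line and in a clear order. The control libraries held 194 and 214 CPM in RT112, 93.5 and 84.3 CPM in TCCSUP, 24.5 and 32.4 CPM in J82 and 5.72 and 6.70 CPM in 253J, and no 2 lines overlapped. All 6 pairs of lines differed, where 53.1% of all genes differed between J82 and 253J and between TCCSUP and 253J, and 48.0% between TCCSUP and J82. FOXA1 also separated all 6 pairs, with 44.8 and 44.4 CPM in RT112, 9.93 and 9.11 CPM in TCCSUP, 6.19 and 5.55 CPM in 253J and 1.44 and 1.20 CPM in J82. GATA3 was at 36.5 and 38.4 CPM in RT112 and 5.46 and 7.12 CPM in TCCSUP. It lay near the floor in the other lines, with 9 and 11 counts in the 253J controls and 40 and 0 counts in the J82 controls, which did not pass the test of their difference (edgeR adjusted p = 0.409).

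TP63 and ELF3 split the lines in other ways. TP63, a basal factor, was at 136 and 133 CPM in the RT112 controls, the same libraries in which the luminal factors were highest, at 0.554 and 1.11 CPM in TCCSUP, and at 4 counts or fewer in each control library of 253J and J82. The difference between 253J and J82 did not pass (edgeR adjusted p = 0.40). ELF3 was at 223 and 212 CPM in RT112 and at 44.2 and 51.3 CPM in 253J, the only one of the 10 genes whose order put 253J next to RT112. TCCSUP followed with 3.64 and 4.10 CPM and J82 with 1.06 and 0.145 CPM, and all 6 pairs of lines differed.

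**Figure D1:**
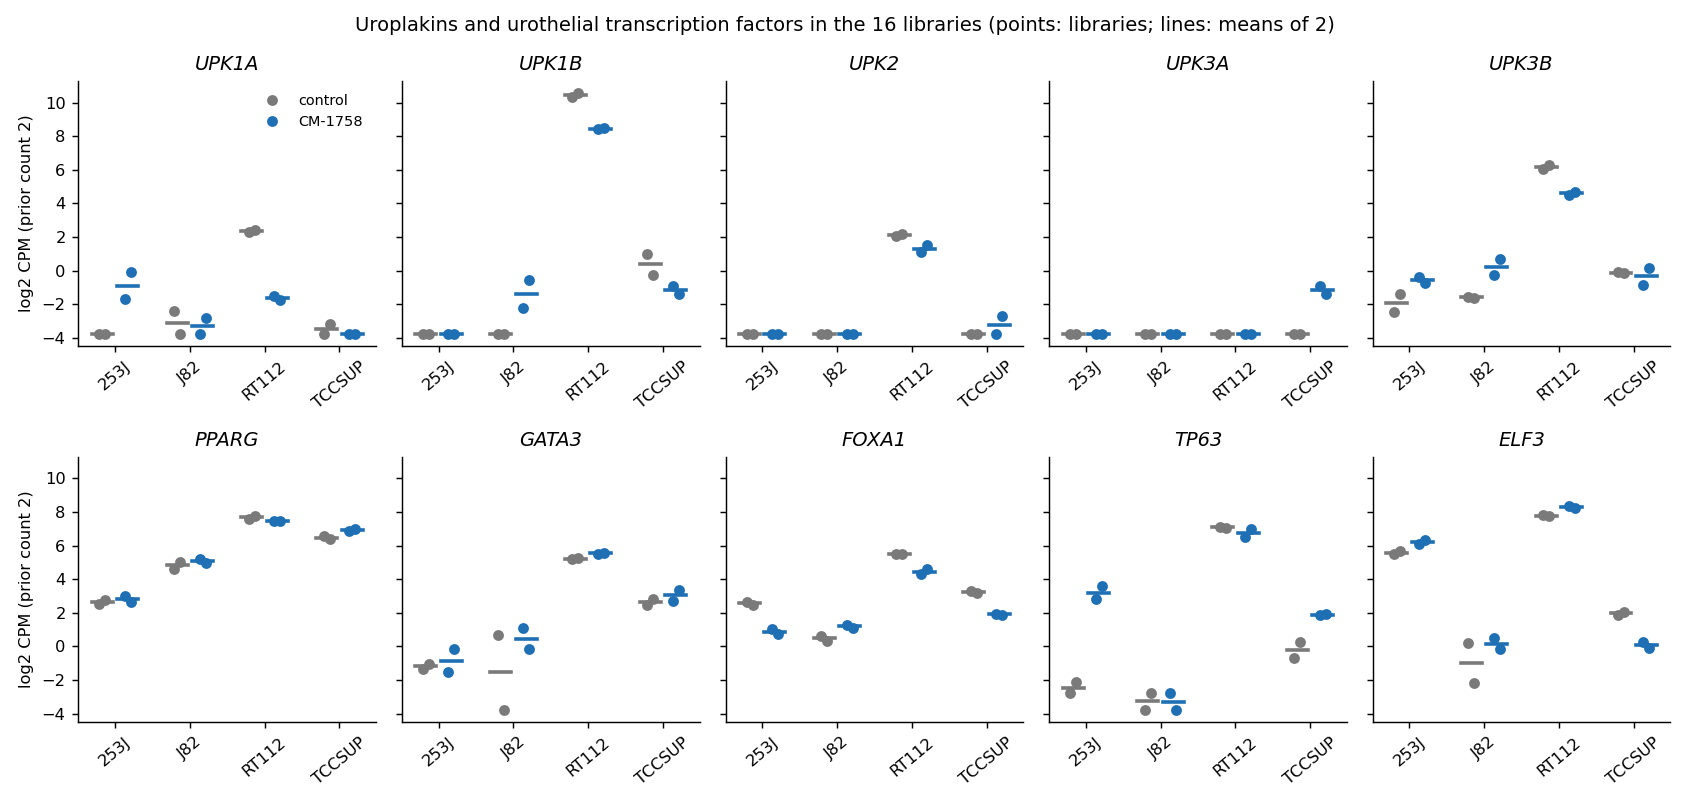
Level of each gene in every library, as log2 CPM with a prior count of 2 on the vertical axis and the 4 cell lines on the horizontal axis, grey for control and blue for CM-1758, with a bar at the mean of the 2 libraries. RT112 is the highest line for 9 genes in the controls, from 1298 and 1517 CPM for UPK1B to 4.05 and 4.54 CPM for UPK2, and a value near the bottom of a panel is a library with no count.

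CM-1758 was then set against the control in each line. Of the 10 genes, 4 rose and 1 fell in 253J, where 28.8% of all tested genes rose and 22.4% fell. In J82, 3 rose and 0 fell, against 24.0% and 18.5% of all genes. In RT112, 0 rose and 4 fell, against 27.4% and 20.2%, and in TCCSUP 3 rose and 3 fell, against 32.0% and 22.1%. A gene without a control count could not fall. Such genes were 4 of the 10 in 253J, 3 in J82, 2 in TCCSUP and 1 in RT112. In J82, UPK1A and TP63 also held 3 counts or fewer in each control library. The count of 0 that fell there was thus partly set beforehand. At an unadjusted p under 0.05 in edgeR the counts of 0 in J82 and RT112 were also 0. By DESeq2, 0 fell in J82 and 1 rose in RT112 (ELF3, adjusted p = 0.00696). With UPK1A, UPK2 and UPK3A set aside, the counts over the other 7 genes were 3 higher and 1 lower in 253J, 3 and 0 in J82, 0 and 3 in RT112, and 2 and 3 in TCCSUP.

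The median log2 fold change was 0.65 in 253J over the 7 genes above the floor, against 0.10 over all tested genes, 0.89 over 6 in J82 against 0.05, -0.82 over 9 in RT112 against 0.12, and 0.12 over 8 in TCCSUP against 0.20. These medians were the same with each gene that had no control count set at its lower bound. In all, 8 of the 10 genes passed in at least 1 line and 2 (UPK2 and GATA3) passed in none. Of the 8, 5 passed in opposite directions in different lines (UPK1A, UPK1B, UPK3B, FOXA1 and ELF3). The shares of all tested genes that did so were not counted, so these numbers have no background beside them. Several of these calls rest on few counts or were lost in other fits, as given below.

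In RT112, the line with the uroplakins, 3 of the 4 detected uroplakins fell. UPK1B went from 1298 and 1517 CPM to 345 and 359 CPM, and the 2 groups were far apart. This was a log2 fold change of -2.0 ± 0.27 (SE, n = 2 and 2, edgeR adjusted p = 8.83e-05). UPK3B, which like UPK3A can partner UPK1B, went from 67.4 and 79.4 CPM to 22.8 and 25.7 CPM (log2 fold change -1.60 ± 0.25, adjusted p = 0.000103). UPK1A fell furthest on the log scale, from 149 and 154 counts to 7 and 6 counts (log2 fold change -4.30 ± 0.72, adjusted p = 0.000317), which was from 5.05 ± 0.246 to 0.251 ± 0.0319 CPM (SD, n = 2). UPK1A cleared the filter on low counts in the RT112 controls alone, so a difference from that group was built into its being tested.

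UPK2, the partner of UPK1A, was lower in both treated RT112 libraries, at 2.07 and 2.78 CPM against 4.05 and 4.54 CPM, but did not pass (log2 fold change -0.82 ± 0.47, adjusted p = 0.177). When RT112 was fitted alone, its adjusted p was 0.0225. After treatment UPK1B was still at 352 ± 9.78 CPM (SD, n = 2) in RT112, above every library of the other 3 lines. UPK3A had no count in RT112 with or without CM-1758.

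The lines with few or no uroplakin counts moved otherwise. UPK1A had 0 and 0 counts in the 253J controls and 6 and 26 in the treated libraries, at least 4.99-fold higher (edgeR adjusted p = 0.00261). UPK1B had no count in the J82 controls and 4 and 18 in the treated libraries, at least 3.37-fold higher (adjusted p = 0.00936), and this was lost without treated replicate 3, where the adjusted p was 0.0885. UPK3A was counted in treated TCCSUP alone, 12 and 8 counts against 0 and 0, at least 3.27-fold higher (adjusted p = 0.0181). It reached the test through that group alone, so this difference was built into its being tested. UPK3A did not pass by DESeq2 (adjusted p = 0.439), without the filter on low counts (0.0555), or with any of the 4 TCCSUP libraries left out (0.0509 to 0.0802). These are levels of less than 1 CPM, next to 352 CPM for UPK1B in treated RT112.

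UPK3B rose in 253J, from 0.109 and 0.306 CPM to 0.713 and 0.540 CPM (log2 fold change 1.58 ± 0.55, adjusted p = 0.0267), and in J82, from 0.266 and 0.254 CPM to 0.752 and 1.52 CPM (2.12 ± 0.47, adjusted p = 0.00214). The call in 253J was lost without control replicate 2 (adjusted p = 0.216), without treated replicate 1 (0.116) and with 253J fitted alone (0.0846). In TCCSUP the treated UPK3B libraries lay on both sides of the controls, at 0.487 and 1.06 CPM against 0.871 and 0.842 CPM (log2 fold change -0.15, adjusted p = 0.785). UPK1B fell in TCCSUP, from 49 and 20 counts to 12 and 8 (log2 fold change -1.80 ± 0.54, adjusted p = 0.0136), a call lost without control replicate 1 (adjusted p = 0.194) or treated replicate 2 (0.0845).

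The responses of UPK3B differed between lines (edgeR F test over the 3 interaction terms, adjusted p = 9.72e-05), as did those of 51.9% of all tested genes. Its response in RT112 was below that in J82 by a log2 difference of -3.71 ± 0.52 (adjusted p = 0.000138) and below that in 253J by -3.17 ± 0.60 (adjusted p = 0.000946). For UPK1B, the responses in RT112 and TCCSUP differed by 0.20 ± 0.67 (adjusted p = 0.933), an interval too wide to call them alike. Of all tested genes, 22.2% responded differently in RT112 and J82, 30.0% in RT112 and 253J, and 27.5% in TCCSUP and RT112.

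UPK3B has near relatives whose reads it could share. Of its 50-base stretches, 9.06% are also found in the pseudogene UPK3BP1, which was not analysed here, and 0 are found in UPK3BL1, so part of the UPK3B counts is uncertain. The relatives UPK3BL1 and UPK3BL2 fell in RT112 too, from 228 ± 3.74 to 56.9 ± 10.3 CPM and from 119 ± 6.07 to 34.9 ± 4.01 CPM (SD, n = 2, adjusted p = 0.000213 and 0.000114). They rose in TCCSUP, by log2 fold changes of 1.44 and 1.40 (adjusted p = 0.00388 and 0.000961), where UPK3B itself did not pass. In 253J, UPK3BL1 rose by 0.90 (adjusted p = 0.0476) and UPK3BL2 by 1.06 (adjusted p = 0.00757). UPK1A-AS1, an antisense gene at UPK1A, was counted in the 2 treated 253J libraries alone, 18 counts in each, the libraries in which UPK1A appeared. The strand setting of the counting is not given in the sources used here, so reads of UPK1A and UPK1A-AS1 may not have been told apart.

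**Figure D2:**
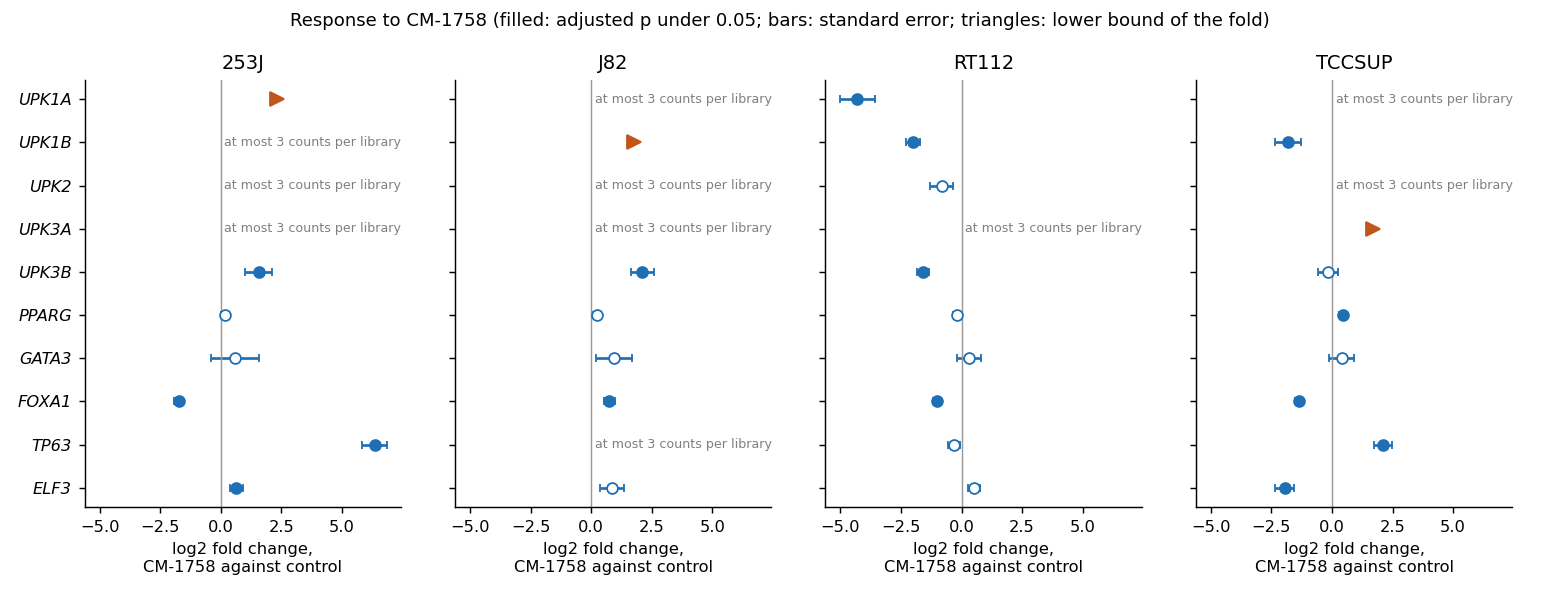
Log2 fold change of CM-1758 against control for each gene (horizontal axis, linear in log2) in the 4 lines, with bars of 1 standard error, filled where the adjusted p was under 0.05, and triangles for the lower bound where no control library held a count. In RT112 the filled points are all to the left of 0, from -4.30 for UPK1A to -1.02 for FOXA1, while TP63 in 253J is farthest to the right at 6.35.

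FOXA1 was the factor that changed in every line, falling in 3 and rising in 1. In 253J it went from 6.19 and 5.55 CPM to 1.94 and 1.59 CPM (log2 fold change -1.74 ± 0.20, edgeR adjusted p = 4.1e-06). In TCCSUP it went from 9.93 and 9.11 CPM to 3.78 and 3.62 CPM (-1.36 ± 0.18, adjusted p = 2.07e-05). RT112 went from 44.8 and 44.4 CPM to 19.8 and 24.2 CPM (-1.02 ± 0.17, adjusted p = 0.000153). In none of these lines did the treated libraries overlap the controls.

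J82, which had the least FOXA1, went the other way, from 1.44 and 1.20 CPM to 2.36 and 2.10 CPM (log2 fold change 0.75 ± 0.22, adjusted p = 0.0115). This rise was lost with J82 fitted alone (adjusted p = 0.169) or without control replicate 3 (0.0846). The response in J82 differed from that in 253J by 2.49 ± 0.30 (adjusted p = 1.93e-05), from RT112, as RT112 minus J82, by -1.77 ± 0.27 (0.000296), and from TCCSUP, as TCCSUP minus J82, by -2.12 ± 0.28 (8.97e-05). Over all genes, 30.0% differed in response between J82 and 253J and 22.2% between TCCSUP and J82. After treatment the 253J and J82 levels lay side by side, at 1.94 and 1.59 CPM and at 2.36 and 2.10 CPM, where the controls had differed 4.44-fold.

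TP63 had the largest fold rise among the genes with counts in both groups. In 253J it went from 2 and 4 counts to 174 and 355 counts, from 0.113 ± 0.0571 to 9.44 ± 3.60 CPM (SD, n = 2), a log2 fold change of 6.35 ± 0.50 (edgeR adjusted p = 1.49e-07). In TCCSUP it went from 0.554 and 1.11 CPM to 3.52 and 3.70 CPM (2.10 ± 0.39, adjusted p = 0.000342). Both rises left TP63 well under the 133 and 136 CPM of the RT112 controls. In RT112 itself the treated libraries were at 89.6 and 128 CPM, both below the controls, and the difference did not pass (-0.31, adjusted p = 0.319). J82 held 2 counts or fewer in every library.

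The response of TP63 differed between lines (edgeR F test, adjusted p = 3.12e-06). RT112 differed from 253J by -6.66 ± 0.58 (adjusted p = 1.11e-06), TCCSUP from 253J by -4.24 ± 0.76 (0.000661) and TCCSUP from RT112 by 2.41 ± 0.46 (0.00113), and 28.6% of all genes responded differently in TCCSUP and 253J. The counts are per gene and do not separate the full-length and the amino-truncated forms of p63.

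ELF3, the ETS factor of luminal cells, fell in TCCSUP, and its response there differed from that in each other line. It went from 3.64 and 4.10 CPM to 1.12 and 0.866 CPM (log2 fold change -1.95 ± 0.38, edgeR adjusted p = 0.000546). Taken as TCCSUP minus the other line, the difference was -2.60 ± 0.46 for 253J (adjusted p = 0.000584), -2.81 ± 0.62 for J82 (0.00425) and -2.48 ± 0.45 for RT112 (0.000839). In 253J it rose from 44.2 and 51.3 CPM to 69.3 and 80.5 CPM (0.65 ± 0.25, adjusted p = 0.0438), a call lost in 12 of the 16 fits that left out 1 library (adjusted p 0.0555 to 0.211).

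In RT112, ELF3 was higher in both treated libraries, 322 and 304 CPM against 223 and 212 CPM, without passing (0.53, adjusted p = 0.0972). It passed there in the fit that blocked on replicate number (adjusted p = 0.0166), with RT112 fitted alone (0.00317), with library size as the scaling (0.045) and by DESeq2 (0.00696), and also without J82 control replicate 1 (0.00726) or 3 (0.00739). In J82 the control libraries were at 1.06 and 0.145 CPM and the treated at 1.36 and 0.813 CPM, so the groups overlapped (0.85, adjusted p = 0.176). Without J82 control replicate 1 that log2 fold change was 2.86 (adjusted p = 0.000704) and without replicate 3 it was 0.02, so 1 library set the value, and ELF3 passed in J82 by DESeq2 (adjusted p = 0.0266).

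PPARG and GATA3, the central pair of the luminal program, changed little or not past the test. PPARG rose in TCCSUP, from 93.5 and 84.3 CPM to 118 and 127 CPM (log2 fold change 0.46 ± 0.16, edgeR adjusted p = 0.0209), a call lost without control replicate 2 (adjusted p = 0.134) or treated replicate 2 (0.106). In RT112 it was at 180 and 174 CPM against 194 and 214 CPM (-0.20, adjusted p = 0.297), in J82 at 36.2 and 31.6 CPM against 24.5 and 32.4 CPM (0.25, adjusted p = 0.224), and in 253J at 7.96 and 6.18 CPM against 5.72 and 6.70 CPM (0.18, adjusted p = 0.423). The response in TCCSUP exceeded that in RT112 by 0.67 ± 0.22 (adjusted p = 0.0345), while the F test over all 4 lines gave an adjusted p of 0.0917. That F test passed with library size as the scaling (0.0314) and without J82 control replicate 1 (0.0472) or 3 (0.0278), and PPARG in 253J passed with library size as the scaling (log2 fold change 0.45, adjusted p = 0.0446).

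GATA3 passed in no line. Its values were 45.6 and 47.1 CPM against 36.5 and 38.4 CPM in RT112 (log2 fold change 0.31, adjusted p = 0.642) and 6.48 and 10.2 CPM against 5.46 and 7.12 CPM in TCCSUP (0.40, adjusted p = 0.547). The RT112 libraries did not overlap, and with RT112 fitted alone the adjusted p was 0.0478. The shared estimate of the spread for GATA3 took in the J82 controls, whose 2 libraries held 40 and 0 counts. The treated J82 libraries held 58 and 24 counts (log2 fold change 0.935, edgeR adjusted p = 0.344). Without J82 control replicate 1, which leaves the control library with 0 counts, that log2 fold change was 8.29. Without control replicate 3 it was -0.083. In 253J the treated libraries held 7 and 24 counts against 9 and 11 (0.58, adjusted p = 0.678).

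FOXA1, GATA3 and ELF3 each start beside a gene on the other strand, with windows that overlap by 121 bases for FOXA1 and TTC6, 256 to 291 for GATA3 and GATA3-AS1, and 267 for ELF3 and ELF3-AS1. Such an overlap is held by 18.9% of the 27305 genes with a window. TTC6 fell with FOXA1 in 253J (log2 fold change -1.73 ± 0.45, adjusted p = 0.00477) and TCCSUP (-1.09 ± 0.43, adjusted p = 0.0417), and was at -0.75 in RT112 (adjusted p = 0.156) and -0.69 in J82 (adjusted p = 0.363), where FOXA1 rose. GATA3-AS1 rose in TCCSUP, from 46 and 48 to 107 and 100 counts (1.12 ± 0.28, adjusted p = 0.00504), and from no control count by at least 9.56-fold in J82 (adjusted p = 9.12e-06) and at least 1.79-fold in 253J (adjusted p = 0.00157), lines in which GATA3 did not pass. ELF3-AS1 rose in RT112, from 67 and 99 to 437 and 366 counts (2.48 ± 0.35, adjusted p = 4.39e-05), where ELF3 was 0.53 higher without passing, and in 253J (1.24 ± 0.37, adjusted p = 0.0112), where ELF3 rose. Whether reads were split between such partners by strand was not tested.

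**Figure D3:**
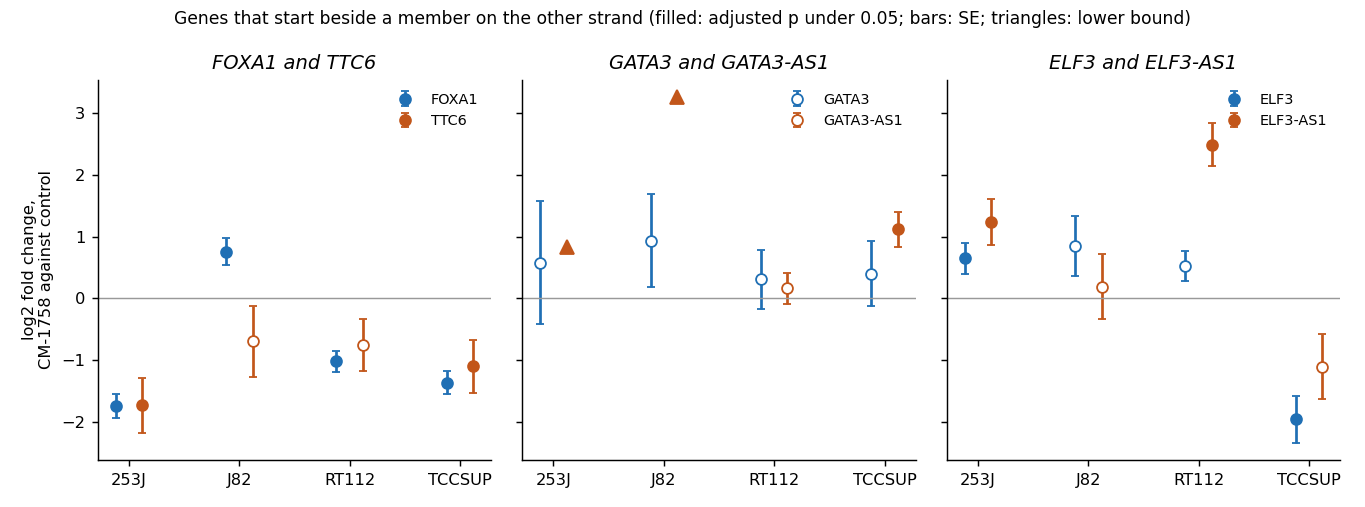
Log2 fold change of CM-1758 against control (vertical axis) for FOXA1, GATA3 and ELF3 in blue and for the gene that starts beside each on the other strand in orange, in the 4 lines, with bars of 1 standard error, filled where the adjusted p was under 0.05, and triangles for a lower bound. ELF3-AS1 stands at 2.48 in RT112 next to 0.53 for ELF3, and FOXA1 and TTC6 lie near each other in 253J at -1.74 and -1.73.

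The other genes of the urothelial program were taken as lists. Of 25 luminal genes, 6 of them also among the epithelial markers, 5 rose and 12 fell in RT112, which is 20.0% and 48.0%, beside 27.4% and 20.2% of all genes. Their median log2 fold change was -0.83 against 0.12. In 253J 6 rose and 5 fell (24.0% and 20.0%, beside 28.8% and 22.4% of all genes), in J82 12 and 3 (48.0% and 12%, beside 24.0% and 18.5%) and in TCCSUP 11 and 4 (44.0% and 16%, beside 32.0% and 22.1%). XBP1, a secretory factor, fell in all 4 lines, by log2 fold changes from -1.39 in RT112 to -2.59 in 253J, and ERBB2, the HER2 receptor, from -0.63 in J82 to -2.17 in 253J. The receptors ERBB3 and FGFR3 fell in RT112 (-1.27 and -1.0) and rose in J82 (2.55 and 2.02) and TCCSUP (3.78 and 3.56).

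The basal list also had a larger share of genes lower, and a smaller share higher, than all genes in RT112 (20.2% lower and 27.4% higher). Of 25 basal genes, 2 rose and 10 fell there (8.0% and 40% of the list, median -0.92), including the desmosomal cadherin DSC3 (-1.30, adjusted p = 8.72e-05) and the annexin ANXA8 (-1.03, adjusted p = 0.000194). DSC3 also fell in J82 (-0.83) and rose in TCCSUP, from no control count by at least 6.89-fold (adjusted p = 5.48e-05), whereas ANXA8 fell in TCCSUP (-4.0) and J82 (-0.60). In 253J 3 genes of the list rose and 5 fell (12% and 20.0%, beside 28.8% and 22.4% of all genes). J82 had 7 and 3 (28% and 12%, beside 24.0% and 18.5%). TCCSUP had 6 and 4 (24.0% and 16%, beside 32.0% and 22.1%). CD44, a basal surface receptor, fell in 253J and TCCSUP, by -2.29 and -2.35, and TRIM29, a tripartite motif protein, rose in J82 and TCCSUP, by 1.59 and 1.27.

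Of 21 tested target genes of PPARG, 10 rose and 5 fell in 253J (47.6% and 23.8%, beside 28.8% and 22.4% of all genes), and 12 and 3 in J82 (57.1% and 14.3%, beside 24.0% and 18.5%). In RT112 5 rose and 6 fell (23.8% and 28.6%, beside 27.4% and 20.2%), and in TCCSUP 9 and 3 (42.9% and 14.3%, beside 32.0% and 22.1%). FABP4, the fatty acid binding protein, went from no control count to at least 133-fold higher in 253J (adjusted p = 6.19e-07) and at least 106-fold higher in J82 (adjusted p = 1.84e-06), with PPARG not passing in either. In RT112, where its control level was 1027 ± 13.4 CPM, it was 618 ± 176 CPM after treatment (SD, n = 2, adjusted p = 0.0716). The lipid droplet protein PLIN4 rose from no control count in 253J and J82, by at least 33.0-fold and 14.8-fold, and fell in RT112 (-0.66, adjusted p = 0.0323). SCD, the fatty acid desaturase, fell in all 4 lines, from -0.77 in RT112 to -2.21 in TCCSUP, and PLIN2 fell in 253J (-0.61) and J82 (-1.29).

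Among 27 partner transcription factors, 7 rose and 6 fell in 253J (25.9% and 22.2%, beside 28.8% and 22.4% of all genes) and 10 and 6 in TCCSUP (37.0% and 22.2%, beside 32.0% and 22.1%), shares near those of all genes. In J82 10 rose and 7 fell (37.0% and 25.9%, beside 24.0% and 18.5%), and in RT112 11 and 7 (40.7% and 25.9%, beside 27.4% and 20.2%). KLF4, a factor of differentiating epithelium, rose in RT112 (3.21 ± 0.17, adjusted p = 6.53e-09), 253J (2.38) and TCCSUP (1.57) and fell in J82 (-0.40, adjusted p = 0.047). RARG, a retinoic acid receptor, fell in all 4 lines, from -0.40 in J82 to -1.52 in TCCSUP. VGLL3, a TEAD cofactor, rose in RT112, J82 and 253J and fell in TCCSUP (-0.75, adjusted p = 0.000687).

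Of 16 genes for the traffic and plaque partners of uroplakins, 7 fell and 4 rose in RT112 (43.8% and 25.0%, beside 20.2% and 27.4% of all genes) and 10 fell and 4 rose in TCCSUP (62.5% and 25.0%, beside 22.1% and 32.0%). In 253J 5 fell and 3 rose (31.2% and 18.8%, beside 22.4% and 28.8%), and in J82 2 fell and 5 rose (12.5% and 31.2%, beside 18.5% and 24.0%). RAB11A, a GTPase of recycling vesicles, rose in RT112 (0.86, adjusted p = 0.00143), and SYTL4, a Rab effector, rose there as well (1.01 ± 0.12, adjusted p = 1.29e-05), while UPK1A, UPK1B and UPK3B fell. The tetraspanins CD151 and TSPAN8 fell in RT112, by -1.0 and -4.98 (adjusted p = 0.000118 and 8.92e-06), the latter from 9.90 ± 0.369 to 0.309 ± 0.0490 CPM. TSPAN8 also fell in J82 (-2.71) and TCCSUP (-3.07) and rose in 253J (3.41 ± 0.69, adjusted p = 0.000779), and CD151 fell in 253J (-1.23) and TCCSUP (-1.74).

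**Figure D4:**
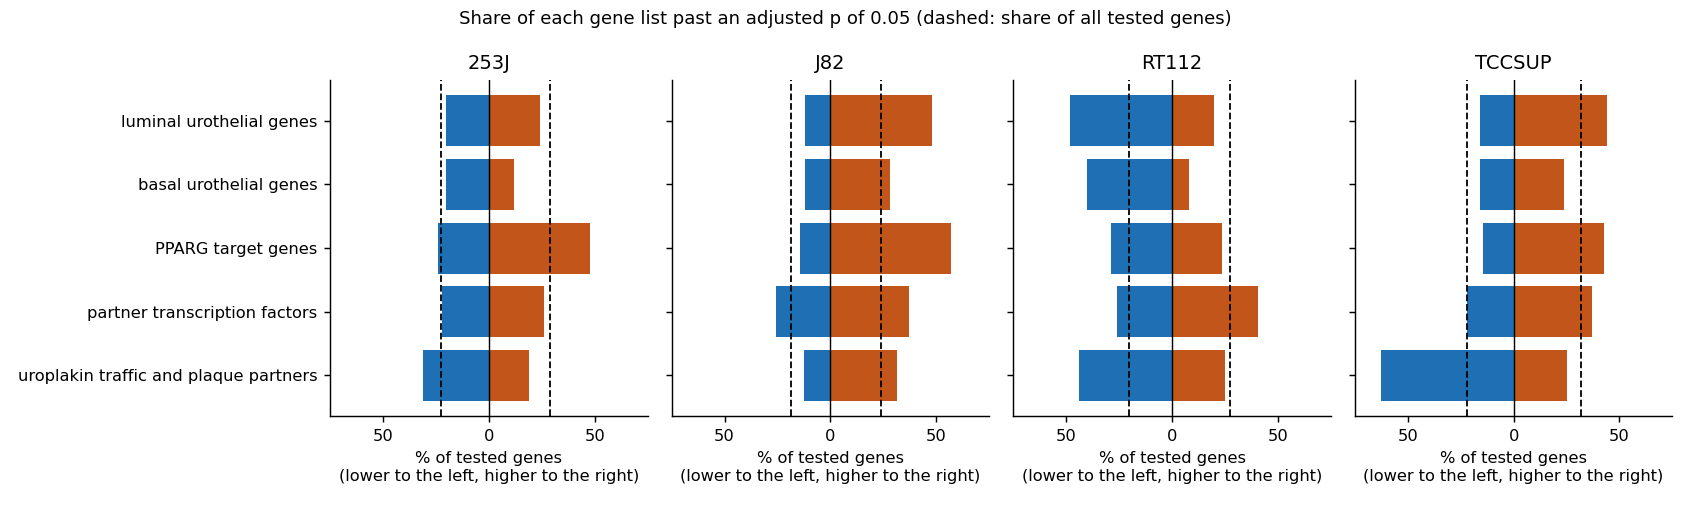
Share of each gene list that rose (orange, to the right) or fell (blue, to the left) with CM-1758, in percent of its tested genes (horizontal axis), by line, with dashed lines at the share of all tested genes. In RT112 the luminal and basal bars reach 48.0% and 40% on the side of genes that fell, past the dashed line at 20.2%.

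Markers of other cell types moved in RT112 beside the uroplakins. Of 13 mesenchymal markers, 11 rose there (84.6%, beside 27.4% of all genes) and 0 fell (beside 20.2%). Their summed level went from 1020 to 1120 CPM in the controls to 1800 to 1870 CPM. TWIST1, SPARC, THY1 and PDGFRB were at 0 in the controls. All 9 tested neuroendocrine and neuronal markers rose in RT112, and the summed level of the 12 listed went from 35.3 to 35.5 CPM to 191 to 224 CPM. Of the 9 tested, 6 rose in 253J (66.7%, beside 28.8% of all genes), 6 in J82 (66.7%, beside 24.0%) and 8 in TCCSUP (88.9%, beside 32.0%). Among the 13 epithelial markers, 3 rose and 3 fell in RT112 (23.1% each, beside 27.4% and 20.2%), shares near those of all genes. Their summed level there was 7460 to 7710 CPM before and 6960 to 7900 CPM after treatment. Of the mesenchymal markers, 4 rose and 4 fell in 253J (30.8% each) and 3 and 4 in J82 (23.1% and 30.8%). TCCSUP had 3 and 9 (23.1% and 69.2%). Of the epithelial markers, 2 rose and 3 fell in 253J (15.4% and 23.1%) and 7 and 1 in J82 (53.8% and 7.69%). TCCSUP had 4 and 3 (30.8% and 23.1%). The shares of all genes were 28.8% and 22.4% in 253J, 24.0% and 18.5% in J82, and 32.0% and 22.1% in TCCSUP. The summed epithelial level in 253J was 3180 to 4330 CPM in the controls and 1860 to 2350 CPM after treatment. It was 5950 to 8070 and 6950 to 7870 CPM in J82, and 1240 to 1360 and 379 to 478 CPM in TCCSUP. For the mesenchymal markers the sums were 6340 to 6950 and 2910 to 3020 CPM in 253J. They were 5270 to 5470 and 6030 to 6650 CPM in J82, and 9090 to 9950 and 2250 to 2680 CPM in TCCSUP. Immune and endothelial markers stayed low in RT112, at a summed 4.07 to 5.32 CPM and 4.30 to 6.89 CPM. The part of these shifts in the fall of the uroplakins was not tested.

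Over the 16 libraries, the genes whose log2 CPM ran most like UPK1B included IKZF2 and EPCAM (Pearson r = 0.971 and 0.967), and those most like UPK3B included IKZF2 and PROM2 (0.964 and 0.964). PROM2 was also the nearest to UPK2 (0.984). FOXA1 was nearest to EMP2 (0.982), PPARG to SERPINB5 (0.976), ELF3 to ITPKC (0.972), TP63 to XPNPEP3 (0.969), GATA3 to HSPG2 (0.956), UPK1A to LGMN (0.933) and UPK3A to CSTF2T (0.920). The libraries fall into 4 cell lines, so such values, apart from that of UPK3A, describe levels that 4 lines share, and they carry no test. UPK3A had counts in the 2 treated TCCSUP libraries alone (12 and 8), so its value sets these against all other libraries.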

How the data were processed

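RNA was prepared from 2 biological replicates per group with a stranded total RNA kit after removal of ribosomal RNA and sequenced on a NovaSeq. The deposited table holds raw counts per gene symbol, whole numbers without normalization, made by the authors. The submitters' processing notes name HISAT2, StringTie and GRCh37, and the counter, the annotation and the strand setting are not given in the sources used here. Genes without enough counts were dropped by edgeR's filterByExpr, which left 21297 of 35993, counts were scaled by the trimmed mean of M-values, and 8 group means were fitted by quasi-likelihood (edgeR 4.0.16, R 4.3.3) with 8 residual degrees of freedom. P-values were adjusted by Benjamini-Hochberg within each contrast. The standard error of a log2 fold change is its size divided by the square root of the quasi-likelihood F. It thus rests on the spread shared by all 16 libraries. Where a group held no count, a bound against 3 counts per library is given. DESeq2 1.42.0, other scalings and filters, each line alone, a replicate block and each library left out were alternatives. Scripts were tested on simulated data. The 10 genes and the gene lists were chosen with earlier results of these data known. Named from each list are the 2 genes with the highest and the 2 with the lowest mean log2 fold change over the lines, among those with a mean log2 CPM above 1. Some genes that these rules name are not reported here. The 253J columns share only replicate number 3 between control and CM-1758.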

Additional observations from a re-analysis of the deposited data

Results flagged for a closer look

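The responses of 6 genes to CM-1758 differed between the 4 lines, by the edgeR F test of the interaction terms, where 51.9% of all tested genes did. The adjusted p was 0.000589 for UPK1A, which fell in RT112 and appeared in treated 253J. It was 0.00436 for UPK1B, which fell in RT112 and TCCSUP and appeared in treated J82, and 0.0744 without treated J82 replicate 3. It was 9.72e-05 for UPK3B, which fell in RT112 and rose in 253J and J82. It was 3.5e-05 for FOXA1, which rose in J82 and fell in the other 3 lines. It was 3.12e-06 for TP63, which rose in 253J and TCCSUP, and 0.000974 for ELF3, which fell in TCCSUP and rose in 253J. For UPK1A and UPK1B some groups held no count, so that their fitted differences rest on the prior count. UPK1A also reached the test through the RT112 controls alone. The calls of FOXA1 in J82, of ELF3 and UPK3B in 253J, and of UPK1B in J82 and TCCSUP were each lost in other fits, as given above.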

How the results depend on the processing

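Apart from the fits that left out 1 library, 67 of the counts of genes were within 1.5 times the reported count and 11 were not. With at least 10 counts required in every library, only PPARG and FOXA1 were left, and the counts were 0 higher in 253J, 1 higher in J82, 1 lower in RT112, 1 higher and 1 lower in TCCSUP, 2 with different control levels and 1 with a different response, because fewer genes were tested. The count higher in RT112 was 1 with library size alone, 1 with DESeq2, 1 with the replicate block and 2 with each line fitted alone. Same-numbered libraries deviated together in J82 (correlation 0.218) and hardly in RT112 (0.043) or TCCSUP (0.017), so the numbers were not taken to pair the libraries over all lines, although they may in J82, and the block changed the call of ELF3 in RT112 alone. With 1 library left out, in which case the lone library is assumed to vary like the other groups, the count higher was 2 to 4 in 253J, 2 to 5 in J82, 0 to 1 in RT112 and 1 to 3 in TCCSUP. Log2 fold changes that had not passed changed sign for UPK3B in TCCSUP (0.158 with library size alone, 0.31 without treated replicate 1, -0.81 without 2), PPARG in 253J (-0.008 without treated replicate 1, 0.359 without 3), GATA3 in 253J (-0.42 without treated replicate 3, 1.111 without 1) and GATA3 in J82 (-0.083 without control replicate 3, 8.294 without 1). The cause was not tested. Scaling by library size alone moved the median of all genes by 0.145 to 0.311 on the log2 scale. UPK1A in 253J, UPK1B in J82 and UPK3A in TCCSUP rest on 26 counts or fewer per library.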
